A study of Mus musculus with 6 samples.

Results

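The genes described are 41 NRF2 targets and redox enzymes, taken from the deposited expression table by their gene symbols. All 41 symbols had a row among the table's 21878, and 39 of them passed the filter for testing, a mean of at least 1 FPKM over all libraries (FPKM are fragment numbers divided by transcript length and by the library total). Mgst1 and Abcc4 did not pass. RNA sequencing was done on Neuro-2a cells, an established line from a mouse neuroblastoma that can extend neurites, in 3 groups of 2 libraries. The control cells carry the treatment label wild type, and no empty vector or scrambled RNA is named for them. A further group overexpressed the long noncoding RNA lncPim1, and in the last group lncPim1 was knocked down by RNA interference. The labels do not say by which construct the RNA was raised or lowered, or whether the manipulated cells are clones or pools.

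NRF2, encoded by Nfe2l2, is a transcription factor held at low levels by KEAP1, an adaptor that presents it to a ubiquitin ligase. Oxidants and electrophiles modify cysteines of KEAP1, and NRF2 then accumulates, pairs with a small MAF protein such as MAFG and binds antioxidant response elements. BACH1 competes for the same elements, and p62, encoded by Sqstm1, draws KEAP1 into autophagy. The targets fall into branches. Glutathione is built, spent on peroxides or conjugates, and recycled. Thioredoxin reduces protein disulfides and peroxiredoxins. NADPH, made largely by the pentose phosphate pathway and malic enzyme, feeds both systems. Further targets handle haem, iron, quinones and carbonyls.

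Promoters are shown for 6 members with a call in the comparisons below and a motif match near the start, chosen after their values were seen, since these windows carry the letters that NRF2 or AP-1 factors are known to read. The sequences are from RefSeq on GRCm38.p6, from 250 bases before to 10 bases after the transcription start, written 5′ to 3′ in the gene's direction. Capitals mark matches on either strand to TGACNNNGC, the core of the antioxidant response element, or to TGACTCA, the AP-1 word, which the former can contain.
Srxn1 promoter, chr2:152105274-152105533, plus strand: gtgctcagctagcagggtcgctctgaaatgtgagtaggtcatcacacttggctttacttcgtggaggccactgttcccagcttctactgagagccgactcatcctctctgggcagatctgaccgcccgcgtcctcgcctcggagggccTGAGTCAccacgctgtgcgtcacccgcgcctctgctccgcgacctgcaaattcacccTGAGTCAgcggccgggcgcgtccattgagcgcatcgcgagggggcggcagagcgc
Osgin1 promoter, chr8:119436897-119437156, plus strand: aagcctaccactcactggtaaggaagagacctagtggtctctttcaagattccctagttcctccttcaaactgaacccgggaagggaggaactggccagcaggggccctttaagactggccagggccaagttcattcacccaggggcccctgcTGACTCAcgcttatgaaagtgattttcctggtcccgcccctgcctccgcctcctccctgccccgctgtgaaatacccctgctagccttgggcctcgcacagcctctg
Txnrd1 promoter, chr10:82858956-82859215, plus strand: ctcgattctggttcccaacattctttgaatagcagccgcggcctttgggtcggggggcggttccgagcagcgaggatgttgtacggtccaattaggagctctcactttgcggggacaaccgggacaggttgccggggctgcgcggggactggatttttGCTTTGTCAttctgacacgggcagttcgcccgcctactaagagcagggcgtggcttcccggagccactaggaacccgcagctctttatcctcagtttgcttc
Gclm promoter, chr3:122245307-122245566, plus strand: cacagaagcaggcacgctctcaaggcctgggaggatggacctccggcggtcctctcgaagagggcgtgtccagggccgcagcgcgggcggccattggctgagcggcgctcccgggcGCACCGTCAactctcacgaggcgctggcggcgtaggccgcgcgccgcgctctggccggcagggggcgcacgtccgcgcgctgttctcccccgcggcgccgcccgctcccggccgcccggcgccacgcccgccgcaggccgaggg
Prdx1 promoter, chr4:116685349-116685608, plus strand: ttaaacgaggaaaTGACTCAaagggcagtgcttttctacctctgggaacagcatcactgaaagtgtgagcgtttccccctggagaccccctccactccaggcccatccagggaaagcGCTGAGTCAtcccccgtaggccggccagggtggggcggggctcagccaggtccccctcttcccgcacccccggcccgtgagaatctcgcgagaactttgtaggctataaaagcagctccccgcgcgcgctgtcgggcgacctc
Me1 promoter, chr9:86695905-86696164, minus strand: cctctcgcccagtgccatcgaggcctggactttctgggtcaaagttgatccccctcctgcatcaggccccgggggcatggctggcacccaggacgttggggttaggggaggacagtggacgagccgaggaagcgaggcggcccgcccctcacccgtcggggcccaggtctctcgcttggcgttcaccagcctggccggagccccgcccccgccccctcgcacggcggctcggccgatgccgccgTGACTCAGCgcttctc

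RefSeq promoters of 300 bases, reaching to 50 bases after the start, matched 35 of the 41 members. Abcc1, Gclc, Gsr, Gsta4, Hmox1 and Prdx6 had no entry. TGACNNNGC stood in a promoter of 13 of the 35 members (37.1%) and of 14.0% of the 27025 genes in the promoter table. Counted over promoters, its share was 12.4% of 32851. TGACTCA stood in the promoters of 4 members, Prdx1, Me1, Srxn1 and Osgin1, and of 5.95% of genes (5.20% of promoters). In Prdx1 and Me1 both motifs overlapped as TGACTCAGC, starting 133 and 6 bases before the start. In Srxn1 the AP-1 word stood 102 and 45 bases before the start, and TGACCTAGC began 29 bases after it, beyond the window shown. In Txnrd1 the match was TGACAAAGC, 92 bases before 1 of the gene's starts, and in Gclm it was TGACGGTGC, 134 bases before. Osgin1 held the AP-1 word at 97 bases before and no TGACNNNGC in the 1 promoter listed for it. In GENCODE the gene begins further upstream, at chr8:119434124, and the bases around that start were not searched. G6pdx, Pgd, Sod1, Mafg, Nfe2l2, Mgst1, Ugdh and Abcc4 also held TGACNNNGC. These are letter matches, not measured binding. Only the words TGACNNNGC and TGACTCA were searched, so a promoter without a match, or with the AP-1 word alone, may hold other forms of the element.

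Summed FPKM ran from 272528 to 305463 per library, and 15120 to 15573 rows were above 0. The number of reads behind them is unknown. Steps between low values put the libraries' relative depths at 0.886 to 1.08 of that of control 1. Only 37.3% (knockdown 2) to 53.6% (control 2) of low values lay on such steps. The search covered a narrow range around the depth of control 1, so it could not have found a much shallower library. Spearman correlations over tested genes were 0.995 to 0.997 within groups and 0.992 to 0.994 between control and overexpression, and the knockdown libraries correlated with the other 4 at 0.976 to 0.984. No row of the table is named lncPim1, so the change of the targeted RNA itself was not analysed here. Of 15 markers of Neuro-2a and sympathetic neuroblastoma cells, 13 were at 1 FPKM or more in both libraries of every group, and their summed level was 1847 to 1882 FPKM in control, 1662 to 1827 under overexpression and 1549 to 1576 under knockdown. Macrophage, fibroblast, erythroid and liver markers summed to at most 7.19 FPKM in any library. A list of 12 digestive tract genes moved with the knockdown. It summed to 28.1 and 34.3 FPKM in control, 28.4 and 39.7 under overexpression and 4.17 and 4.69 under knockdown, where 8 of the 12, Reg1, Reg3b, Prap1, Fabp1, Tff2, Tff3, Defa24 and Zg16, had 0 FPKM in each library. Its part in the knockdown results below was not tested. Whether libraries of 1 group stem from separate cultures is not in the labels, so the p-values reflect the scatter among these 6 libraries and that scatter may be technical. In bulk RNA, fewer cells of a kind and less RNA per cell cannot be told apart.

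lncPim1 overexpression went with higher RNA of 8 members. These were Osgin1, Srxn1, Nqo1, Blvrb, Esd, Cat, Pgd and Txnrd1, 1.27 to 2.41 times the control mean on the FPKM scale. None was called lower. Srxn1 repairs over-oxidised peroxiredoxins, Nqo1 reduces quinones, Blvrb reduces biliverdin, Cat is catalase, Pgd yields NADPH, and Txnrd1 recharges thioredoxin. A gene was called where limma's Benjamini-Hochberg adjusted p, over all 10721 genes tested, was under 0.05. The 8 members called higher were 20.5% of the 39 tested, where 0.690% of all tested genes were called higher and 0.849% lower. Members were chosen with earlier results of these data known, so shares of members called, here and below, are not independent of those results. At an unadjusted p under 0.05, 21 of the 39 members and 1833 of the 10721 genes differed. The members' median difference was 0.16 in log2(FPKM + 1), beside -0.0031 over all tested genes. Without control 1 the call held for Srxn1 alone, and without control 2 for Srxn1 and Osgin1. With either overexpression library left out it held for Srxn1, Osgin1 and Blvrb.

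**Figure D1:**
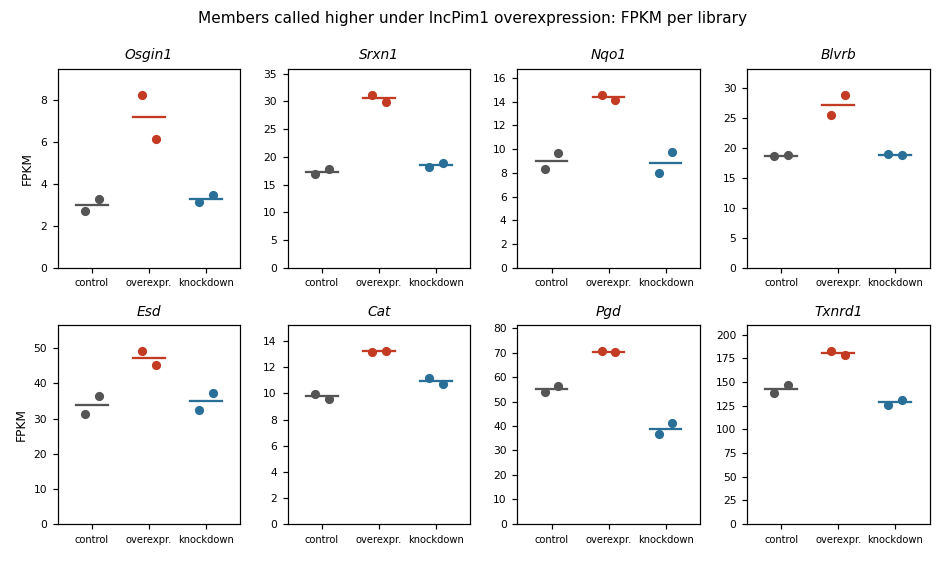
FPKM in each library (points) and group mean (bars) for the 8 members called higher under lncPim1 overexpression against control, each on its own linear axis from 0. In all 8 panels both overexpression libraries lie above both control libraries; Pgd and Txnrd1 also have their knockdown libraries below control.

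lncPim1 knockdown went with lower RNA of 17 members and higher RNA of 3. The 17 were Gsta4, Pgd, Prdx1, Gclm, Txn1, Gsr, Ftl1, Me1, G6pdx, Gclc, Sod1, Keap1, Gpx1, Cbr3, Sod2, Taldo1 and Txnrd1. They hold both subunits of the enzyme that starts glutathione synthesis, glutathione reductase, thioredoxin and its reductase, and 4 NADPH-producing or pentose phosphate enzymes. The 3 higher ones were Gstm1, Nfe2l2 and Mafg. The 17 members called lower were 43.6% of the 39 tested, where 31.3% of all tested genes were called lower. They include Gsta4, which passed the filter only through its overexpression libraries, so that share is not independent of the filter. The 3 called higher were 7.69%, where 14.8% of all genes were. Both shares are of the same order as the background. The members' median difference was -0.15, beside -0.070 over all tested genes. The split of all calls moved with the scaling, from 1590 higher and 3358 lower (32.1% higher) to 2245 and 2286 (49.5%) after scaling each library by its median log ratio, which left 13 members lower and 5 higher. Without control 2, 11 of the 17 lower calls held, those of Keap1, Gsta4, Txnrd1, Taldo1, Sod2 and Cbr3 being lost. Without control 1 or without knockdown 1, 1 of the 3 higher calls held, that of Nfe2l2.

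**Figure D2:**
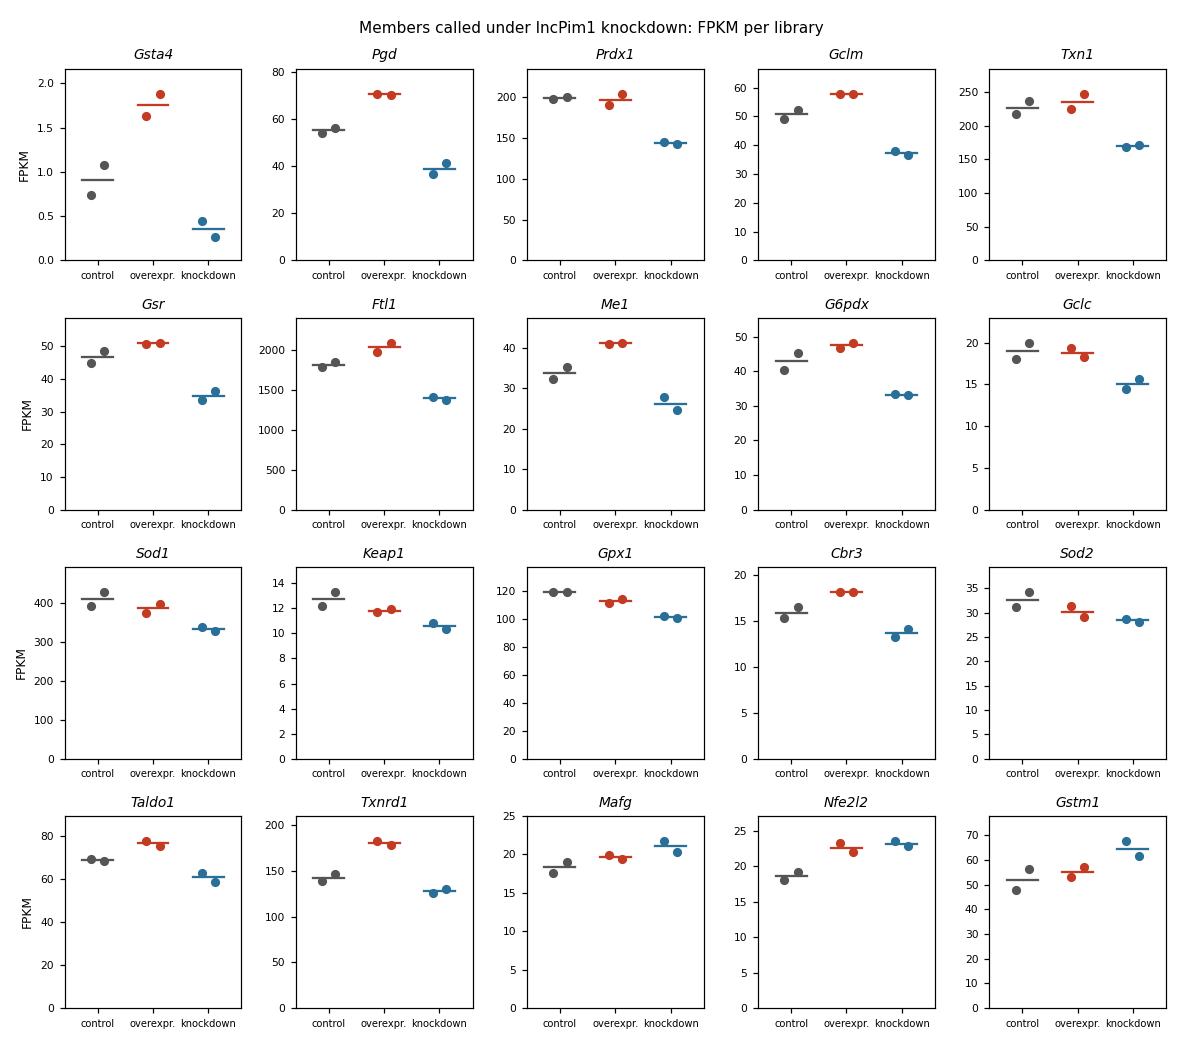
FPKM in each library (points) and group mean (bars) for the 20 members called under lncPim1 knockdown against control, each on its own linear axis from 0. In the 17 panels from Gsta4 to Txnrd1 both knockdown libraries lie below both control libraries, and in Mafg, Nfe2l2 and Gstm1 above them.

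Between the manipulated groups, 26 members were higher under overexpression than under knockdown and none was lower. Those 26 were 66.7% of the 39 tested, where 28.1% of all tested genes were called higher and 12.4% lower. Gsta4, tested only through its overexpression libraries, is among them, so this share too depends on the filter. The members' median difference was 0.33, beside 0.071 over all tested genes. By call, Txnrd1 and Pgd rose under overexpression and fell under knockdown. For Txnrd1 the overexpression call held in 10 of 16 alternatives and the knockdown call in 8. For Pgd they held in 9 and in all 16. Another 6, Srxn1, Cat, Blvrb, Nqo1, Esd and Osgin1, rose under overexpression with no call under knockdown, and 15 fell under knockdown with no call under overexpression. The 3 that rose under knockdown had no call under overexpression. Sqstm1, Slc7a11, Hmox1, Fth1 and Ephx1 were called only between the manipulated groups, and Bach1, Gpx4, Prdx6, Tkt, Idh1, Cbr1, Ugdh and Abcc1 in no comparison. The contrasts against control share the control libraries, so their differences are not independent. With the median log ratio scaling, all calls between the manipulated groups moved from 3013 higher and 1332 lower (69.3% higher) to 1951 and 1908 (50.6%), and the members to 24 higher and 2 lower, Mafg and Gstm1.

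**Figure D3:**
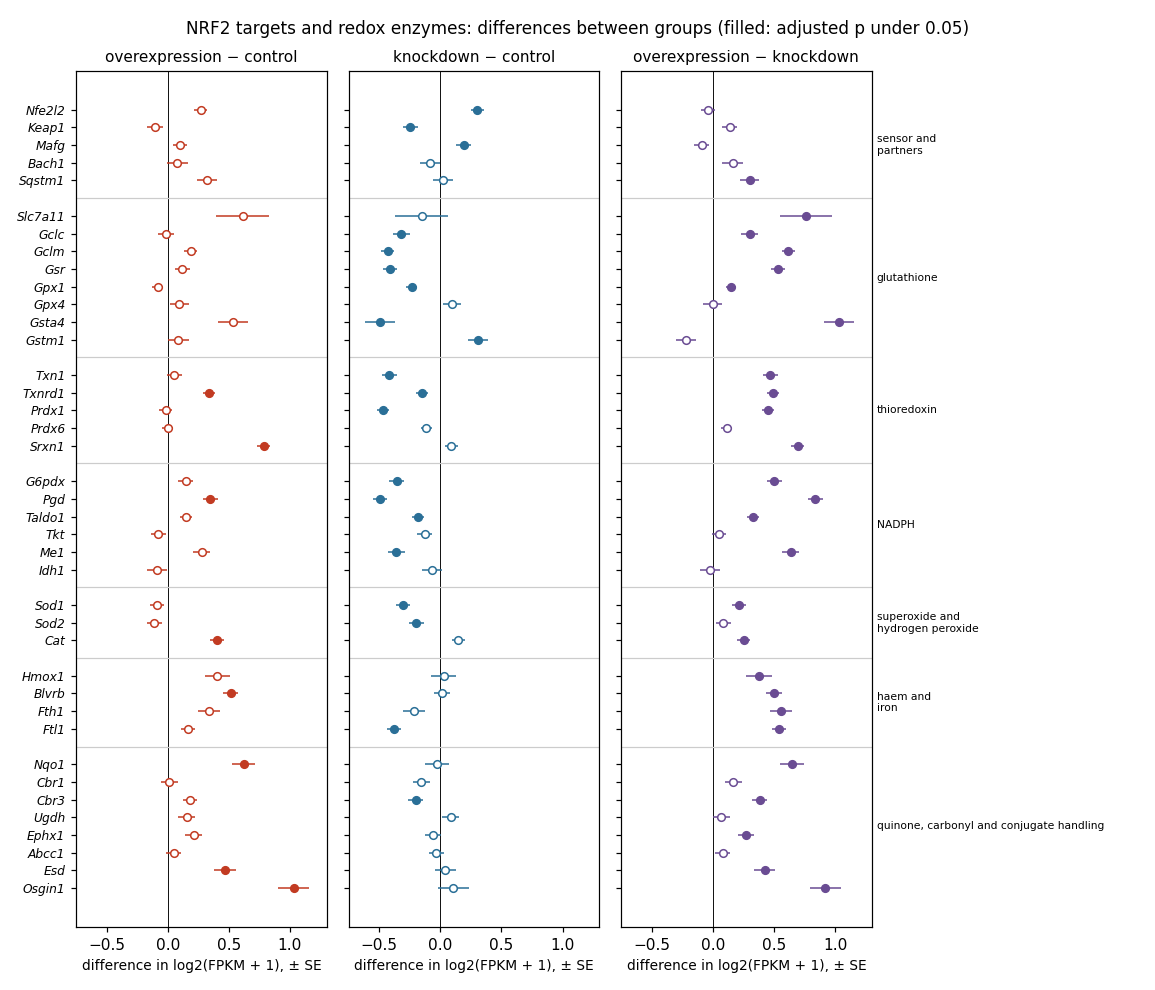
Difference in log2(FPKM + 1) with its standard error for the 39 tested members in the 3 comparisons, grouped by branch; filled points have an adjusted p under 0.05. Filled points lie to the right in the overexpression panel (8) and mostly to the left in the knockdown panel (17 of 20).

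Among the sensor and its partners no gene was called under overexpression in the fit reported. With median log ratio scaling Nfe2l2 was called higher there. Under knockdown 2 of 5 were called higher and 1 lower, where 14.8% of all tested genes were called higher and 31.3% lower. Nfe2l2, the gene of NRF2 itself, was at 18.0 and 19.2 FPKM in control, 23.3 and 22.04 under overexpression and 23.6 and 22.9 under knockdown. Both manipulated groups thus lay above control and overlapped each other. The difference was 0.27 ± 0.06 (SE) in log2(FPKM + 1) under overexpression, with an adjusted p of 0.0594, and 0.30 ± 0.06 under knockdown, with an adjusted p of 0.00287. Keap1 was at 12.2 and 13.3 FPKM in control, 11.7 and 11.9 under overexpression and 10.9 and 10.4 under knockdown. It fell by 0.24 under knockdown (adjusted p 0.0118), and its groups did not overlap. An antisense gene, Gm16754, overlaps its exons, and without a stated strand setting for the counting the pair cannot be told apart.

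Mafg, the small MAF partner of NRF2, was at 17.6 and 19.0 FPKM in control, 20.0 and 19.4 under overexpression and 21.7 and 20.4 under knockdown. It rose under knockdown by 0.19 ± 0.06 (adjusted p 0.0282). Its exons overlap those of Sirt7 on the same strand, which was at 10.8 and 11.9 FPKM in control and 15.7 and 16.4 under knockdown and differed by 0.47 (adjusted p 7.43e-04), so reads of the pair may be shared. Exons of Sqstm1 overlap those of Mrnip on the opposite strand, so reads may have been shared. Sqstm1 was at 192 and 223 FPKM in control, 275 and 244 under overexpression and 208 and 213 under knockdown. Overexpression lay above both other groups, with a difference of 0.32 (adjusted p 0.0977) from control and 0.30 (adjusted p 0.0177) from knockdown. That call held in 11 of 16 alternatives. It was lost with no filter, with quantile normalization, without overexpression 1, without knockdown 1 and without knockdown 2. Bach1, the repressor, was lowest of the 5, at 3.96 FPKM in its lowest library, and was called in no comparison.

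In the glutathione branch, 5 of 8 tested members fell under knockdown, 1 rose, and none was called under overexpression; 6 were higher under overexpression than under knockdown. Of all tested genes, 31.3% were called lower and 14.8% higher under knockdown, and 28.1% higher between the manipulated groups. Gsta4 is counted in the 5 and in the 6, though it was tested only through its overexpression libraries. The branch medians were 0.11 under overexpression and -0.27 under knockdown. Gclm, the modifier subunit of glutamate-cysteine ligase, was at 49.2 and 52.3 FPKM in control, 57.9 and 57.9 under overexpression and 38.2 and 36.6 under knockdown. The 3 groups did not overlap. The knockdown difference was -0.43 ± 0.05 (adjusted p 3.84e-04), and the overexpression difference was 0.19 (adjusted p 0.117). An opposite-strand gene, Gm17494, and a pseudogene, Gm6061, overlap its exons, so reads may have been shared.

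Gclc, the catalytic subunit of the same enzyme, was at 18.1 and 20.0 FPKM in control, 19.4 and 18.2 under overexpression and 14.4 and 15.7 under knockdown. Overexpression and control overlapped, and knockdown lay below both, with a difference of -0.32 ± 0.07 from control (adjusted p 0.00576). Glutathione reductase, Gsr, was at 45.1 and 48.6 FPKM in control, 50.9 and 51.1 under overexpression and 33.6 and 36.3 under knockdown. The knockdown libraries were again the lowest, with a difference of -0.41 ± 0.06 (adjusted p 7.88e-04). Gpx1, a peroxidase that spends glutathione on hydrogen peroxide, was at 119 and 119 FPKM in control, 111 and 114 under overexpression and 102 and 100.5 under knockdown. It fell by 0.23 ± 0.04 under knockdown (adjusted p 0.00345) and was 0.15 higher under overexpression than under knockdown (adjusted p 0.0275), a call that held in 7 of 16 alternatives. Gpx4, which reduces lipid peroxides, ranged from 238 to 288 FPKM over all libraries, and its groups overlapped in every comparison. A pseudogene is named after Gpx4, which could take part of its reads.

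Slc7a11 imports cystine, the source of the cysteine in glutathione. It was at 7.86 and 10.9 FPKM in control, 17.7 and 12.1 under overexpression and 6.59 and 10.2 under knockdown. Both overexpression libraries were the highest, but they differed widely from each other. The difference from control was 0.61 ± 0.22 (adjusted p 0.198) and that from knockdown 0.76 ± 0.22 (adjusted p 0.0222). The latter call held in 12 of 16 alternatives. It was lost with no filter, with robust moderation, without overexpression 1 and without knockdown 1.

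The glutathione transferases did not move alike. Gsta4, which conjugates lipid aldehydes, was at 0.741 and 1.08 FPKM in control, 1.64 and 1.89 under overexpression and 0.442 and 0.265 under knockdown. The groups were ordered knockdown, control, overexpression with no overlap. It fell by 0.50 ± 0.12 under knockdown (adjusted p 0.0109) and was 1.03 ± 0.12 higher under overexpression than under knockdown (adjusted p 6.45e-04). Its mean of about 1 FPKM passed the filter only through the overexpression libraries, so its high level there is not independent of the filter, and the pseudocount of 1 understates its fold. Mgst1, a membrane-bound transferase and peroxidase, was under the filter, at 0.0442 and 0.0911 FPKM in control, 0.441 and 0.350 under overexpression and listed at 0 in both knockdown libraries. Its order matched that of Gsta4. Gstm1, a mu-class transferase, was at 47.8 and 56.3 FPKM in control, 53.1 and 57.3 under overexpression and 67.7 and 61.4 under knockdown. It rose under knockdown by 0.31 ± 0.08 (adjusted p 0.0151), opposite to Gsta4. Its near-identical mu-class copies make this value uncertain, as reads may have been shared among them.

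In the thioredoxin branch, Srxn1 and Txnrd1 rose under overexpression, and Prdx1, Txn1 and Txnrd1 fell under knockdown, that is 2 and 3 of 5 tested, where 0.690% of all tested genes were called higher under overexpression and 31.3% lower under knockdown. Srxn1, sulfiredoxin, was at 16.9 and 17.8 FPKM in control, 31.2 and 29.9 under overexpression and 18.2 and 18.8 under knockdown. Overexpression stood far above the other 4 libraries. The difference from control was 0.78 ± 0.05 (adjusted p 0.00112), 1.76 times on the FPKM scale, and this call held in all 16 alternatives, with adjusted p from 7.33e-04 to 0.0421. Under knockdown it was 0.09 (adjusted p 0.196). With median log ratio scaling and with quantile normalization that knockdown difference became 0.17 and 0.20, with adjusted p of 0.0290 and 0.0235.

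Txnrd1, thioredoxin reductase, was at 139 and 147 FPKM in control, 183 and 179 under overexpression and 126 and 131 under knockdown. The 3 groups did not overlap. It rose under overexpression by 0.34 ± 0.05 (adjusted p 0.0187), and the knockdown difference was -0.15 ± 0.05 (adjusted p 0.0329), which quantile normalization turned to 0.046 (adjusted p 0.435). Txn1, thioredoxin, was at 218 and 236 FPKM in control, 224 and 248 under overexpression and 168 and 171 under knockdown. The knockdown libraries stood apart from the other 4, with a difference of -0.42 ± 0.06 from control (adjusted p 0.00113). Prdx1, a peroxiredoxin that sulfiredoxin repairs, was at 198 and 200.3 FPKM in control, 189 and 204 under overexpression and 144 and 143 under knockdown. Control and overexpression overlapped, and the knockdown difference was -0.47 ± 0.05 (adjusted p 2.70e-04). Srxn1 thus rose under overexpression while the Prdx1 values of the same libraries spanned those of control. Prdx6, which uses glutathione rather than thioredoxin, was at 62.4 to 67.9 FPKM in all libraries and was called in no comparison; its knockdown difference was -0.11 (adjusted p 0.0600). Txn1 and Prdx6 each have a pseudogene named after them, which could take part of their reads.

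In the NADPH branch, 4 of 6 members fell under knockdown, where 31.3% of all tested genes were called lower, and 1 rose under overexpression, where 0.690% were called higher. Pgd, 6-phosphogluconate dehydrogenase, was at 53.9 and 56.3 FPKM in control, 70.7 and 70.1 under overexpression and 36.7 and 41.2 under knockdown. The groups were well apart, in the order knockdown, control, overexpression. It rose by 0.35 ± 0.06 under overexpression (adjusted p 0.0336) and fell by 0.49 ± 0.06 under knockdown (adjusted p 4.48e-04). G6pdx, glucose-6-phosphate dehydrogenase, which opens the same pathway, was at 40.4 and 45.4 FPKM in control, 46.8 and 48.3 under overexpression and 33.4 and 33.1 under knockdown. It kept the same order, with -0.36 ± 0.06 under knockdown (adjusted p 0.00196) and 0.15 under overexpression (adjusted p 0.261). Ikbkg overlaps it on the opposite strand and stood at 3.39 to 3.74 FPKM in all libraries.

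Malic enzyme, Me1, was at 32.3 and 35.2 FPKM in control, 40.95 and 41.2 under overexpression and 27.7 and 24.5 under knockdown. It fell by 0.36 ± 0.07 under knockdown (adjusted p 0.00327), and its overexpression difference was 0.28 (adjusted p 0.0938). An antisense gene, A330041J22Rik, overlaps its exons. Taldo1, transaldolase of the non-oxidative pentose phosphate steps, was at 69.6 and 68.6 FPKM in control, 77.8 and 75.6 under overexpression and 63.1 and 58.7 under knockdown. Its knockdown difference of -0.18 ± 0.05 (adjusted p 0.0190) went to 0.0060 (adjusted p 0.931) with quantile normalization. Transketolase, Tkt, acts beside it and ranged from 63.2 to 72.7 FPKM over all libraries with no call. Idh1, the cytosolic isocitrate dehydrogenase, ranged from 16.2 to 19.1 FPKM, with overlapping groups in every comparison.

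Of the enzymes that remove superoxide and hydrogen peroxide, Cat rose under overexpression and both superoxide dismutases fell under knockdown, 1 and 2 of 3 members, beside 0.690% of all tested genes higher and 31.3% lower. Catalase, Cat, was at 9.96 and 9.61 FPKM in control, 13.2 and 13.3 under overexpression and 11.2 and 10.7 under knockdown. Both manipulated groups lay above control, overexpression further. It rose under overexpression by 0.40 ± 0.06 (adjusted p 0.0171), and the knockdown difference was 0.15 (adjusted p 0.0575), or 0.23 (adjusted p 0.0128) with median log ratio scaling and 0.21 (adjusted p 0.0216) with quantile normalization. Sod1, the cytosolic dismutase, was at 393 and 428 FPKM in control, 375 and 396 under overexpression and 337 and 327 under knockdown. It fell by 0.30 ± 0.06 under knockdown (adjusted p 0.00333). Sod2, the mitochondrial one, was at 31.1 and 34.3 FPKM in control, 31.4 and 29.0 under overexpression and 28.6 and 28.2 under knockdown. The call of its knockdown difference of -0.20 ± 0.06 (adjusted p 0.0316) held in 8 of 16 alternatives.

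Of the haem and iron members 1 of 4 rose under overexpression and 1 fell under knockdown, where 0.690% of all tested genes were called higher and 31.3% lower. Ftl1 and Fth1, the most abundant of the 41, encode the light and heavy chains of ferritin, which stores iron. Ftl1 was at 1781 and 1847 FPKM in control, 1974 and 2089.8 under overexpression and 1416 and 1372 under knockdown. The 3 groups did not overlap, and the knockdown difference was -0.38 ± 0.06 (adjusted p 0.00113). Fth1 was at 923 and 1083 FPKM in control, 1316 and 1215 under overexpression and 806 and 916 under knockdown. It showed the same order, with differences of 0.34 (adjusted p 0.114) and -0.22 (adjusted p 0.0777) against control, and 0.56 ± 0.09 between the manipulated groups (adjusted p 0.00213). Both ferritin genes have pseudogenes named after them, with which reads may have been shared. Gm22133 and Gm10252 overlap exons of Ftl1 as well.

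Blvrb, biliverdin reductase B, was at 18.6 and 18.8 FPKM in control, 25.4 and 28.9 under overexpression and 18.9 and 18.8 under knockdown. Control and knockdown were close together, and overexpression was higher than control by 0.51 ± 0.06 (adjusted p 0.0109), or 1.45 times on the FPKM scale. Hmox1, the inducible haem oxygenase, was at 37.5 and 46.6 FPKM in control, 60.3 and 51.5 under overexpression and 41.7 and 43.7 under knockdown. Overexpression was highest here too, by 0.41 ± 0.10 against control (adjusted p 0.102) and 0.38 ± 0.10 against knockdown (adjusted p 0.0194). The latter call held in 12 of 16 alternatives. It was lost with no filter, with quantile normalization, without overexpression 1 and without knockdown 1.

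Of the 8 tested quinone, carbonyl and conjugate handling members, 3 rose under overexpression and 1 fell under knockdown, where 0.690% of all tested genes were called higher and 31.3% lower. Osgin1, an oxidative stress-induced growth inhibitor, was at 2.73 and 3.26 FPKM in control, 8.28 and 6.14 under overexpression and 3.13 and 3.47 under knockdown. Its 2.41-fold mean under overexpression was the largest among the tested members, 1.03 ± 0.12 on the log2 scale (adjusted p 0.00988). Nqo1, a quinone reductase often used to read NRF2 activity, was at 8.33 and 9.71 FPKM in control, 14.6 and 14.1 under overexpression and 7.96 and 9.75 under knockdown. Knockdown spanned the control values, and overexpression was higher by 0.62 ± 0.10 (adjusted p 0.0229), 1.59 times in FPKM. Esd, an esterase that takes part in formaldehyde removal with glutathione, was at 31.4 and 36.5 FPKM in control, 49.3 and 45.2 under overexpression and 32.6 and 37.4 under knockdown. It showed the same picture, with 0.47 ± 0.09 under overexpression (adjusted p 0.0445). A pseudogene is named after Esd, so reads may have been shared.

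Cbr3, a carbonyl reductase, was at 15.3 and 16.5 FPKM in control, 18.2 and 18.1 under overexpression and 13.2 and 14.2 under knockdown. Its knockdown difference was -0.20 ± 0.06 (adjusted p 0.0244) and was -0.12 with either other scaling (adjusted p 0.128 and 0.158). A pseudogene, Gm36961, overlaps exons of Ephx1, so reads may have been shared. Ephx1, an epoxide hydrolase, was at 52.3 and 54.0 FPKM in control, 59.3 and 64.2 under overexpression and 54.1 and 47.9 under knockdown. It was called only between the manipulated groups, by 0.27 ± 0.07 (adjusted p 0.0129). That call held in 13 of 16 alternatives. It was lost with quantile normalization, without overexpression 2 and without knockdown 2. Cbr1, Abcc1 and Ugdh, a carbonyl reductase, an exporter of glutathione conjugates and a supplier of glucuronic acid, lay between 17.0 and 24.1 FPKM in all libraries with no call. Abcc4, another exporter, was listed at 0 in control 1 and knockdown 1 and at 0.00611 to 0.0221 FPKM in the other 4.

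**Figure D4:**
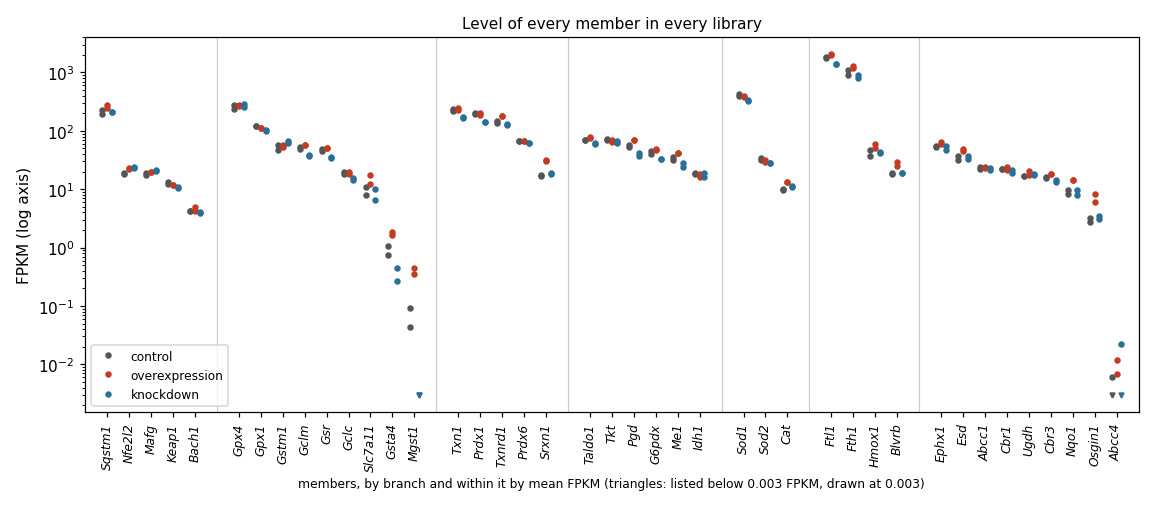
FPKM of all 41 members in each of the 6 libraries on a log axis, grouped by branch and ordered by mean within it; triangles stand for values listed below 0.003 FPKM. The ferritin genes Ftl1 and Fth1 lie highest, from 806 to 2089.8 FPKM, and Gsta4, Mgst1 and Abcc4 lowest, at 1.89 or less.

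A wider list of 139 other genes of the same branches had 138 in the table and 101 tested. Under overexpression 2 were called higher and 1 lower, under knockdown 18 higher and 35 lower, and between the manipulated groups 34 higher and 14 lower. As shares of the 101, these were 1.98% and 0.990%, 17.8% and 34.7%, and 33.7% and 13.9%, beside 0.690% and 0.849%, 14.8% and 31.3%, and 28.1% and 12.4% of all tested genes, so the knockdown and between-group shares lay near the background. Their medians were -0.00063, -0.060 and 0.075, near those of all tested genes. The genes called under overexpression, named after their values were seen where the naming rule did not reach them, were Ptgr1, a prostaglandin and alkenal reductase, and Gss, glutathione synthetase, which rose, and Glrx, a glutaredoxin, which fell. Ptgr1 was at 3.22 and 3.13 FPKM in control, 5.29 and 4.73 under overexpression and 3.15 and 2.98 under knockdown, a rise of 0.52 ± 0.08 under overexpression (adjusted p 0.0190). Gss was at 5.61 and 5.74 FPKM in control, 7.26 and 8.09 under overexpression and 7.41 and 7.30 under knockdown, so both manipulated groups were above control. Glrx was at 15.3 and 17.0 FPKM in control, 10.6 and 11.4 under overexpression and 12.6 and 12.3 under knockdown. It fell by 0.51 ± 0.07 under overexpression (adjusted p 0.0124) and was called lower under knockdown as well (-0.35, adjusted p 0.00332).

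Among the other sensor genes, Maff, another small MAF, rose by 0.56 under knockdown (adjusted p 0.00113). Rbx1, a subunit of the ligase that acts on NRF2, fell by 0.50, from 90.04 and 89.4 FPKM in control to 59.9 and 66.1 under knockdown (adjusted p 4.33e-04). Dpp3, a KEAP1-binding peptidase, fell by 0.24 (adjusted p 0.0413). Of the other glutathione genes 9 of 25 rose and 6 fell under knockdown. Over all tested genes 14.8% were called higher and 31.3% lower there. The 25 had a median difference of 0.12, where the glutathione members had -0.27. Among the 25, Gstm7 and Gstm6, relatives of Gstm1, rose by 0.73 and 0.67 under knockdown (adjusted p 0.00381 and 0.00233), and Mgst3 fell by 0.62 (adjusted p 0.0369). Mgst3 was at 2.07 and 1.37 FPKM in control, 0.763 and 1.01 under overexpression and 1.21 and 0.406 under knockdown, and its mean passed the filter only through the control libraries, so its higher level there is not independent of the filter. Of the other thioredoxin genes none was called higher and 6 of 17 were called lower under knockdown, near the 31.3% of all tested genes called lower. Among them the mitochondrial peroxiredoxin Prdx3 fell by 0.48 (adjusted p 2.05e-04), and Txnrd3 fell by 0.41 (adjusted p 0.00109). Msrb1, a methionine sulfoxide reductase, was called only between the manipulated groups, at -0.34 (adjusted p 0.0255).

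Of the other NADPH genes 7 of 14 fell and 1 rose under knockdown, where 31.3% of all tested genes were called lower and 14.8% higher. The riser, Aldh1l2, a mitochondrial folate enzyme that makes NADPH, was at 19.6 and 24.5 FPKM in control, 31.5 and 26.5 under overexpression and 37.7 and 39.1 under knockdown, a rise of 0.78 ± 0.10 (adjusted p 6.47e-04). Another mitochondrial folate gene, Mthfd1l, fell by 0.28 (adjusted p 0.00565), and the mitochondrial malic enzyme Me2 fell by 0.46 (adjusted p 5.32e-04), in the direction of Me1. Park7, an oxidation-sensing protein, fell by 0.30 (adjusted p 0.00115). Of the other haem and iron genes 8 of 13 fell and 2 rose under knockdown, beside the same 31.3% and 14.8% of all tested genes. The iron exporter Slc40a1 was at 2.34 and 2.07 FPKM in control, 1.98 and 1.85 under overexpression and 0.122 and 0.383 under knockdown, a difference of -1.36 ± 0.12 (adjusted p 1.39e-04); it too passed the filter through the groups where it is high. Pir fell by 0.33 under knockdown (adjusted p 0.00527), and Tfrc, the transferrin receptor, was called only between the manipulated groups (0.45, adjusted p 0.00981). In the last branch Abcc5, an exporter, fell by 0.35 (adjusted p 0.00274), and Akr1b8, an aldose reductase relative, rose by 0.40 (adjusted p 0.00531), both under knockdown.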

How the data were processed

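Total RNA of Neuro-2a cells was made into libraries with a stranded mRNA kit, per the labels' protocols. The authors deposited FPKM for each gene symbol and library. Trimmomatic, HISAT2, Cufflinks, HTSeq, DESeq and build mm10 are named, per the submitters' processing notes; versions, annotation, filters and strandedness of the counting: not given in the sources used here. Since FPKM hold no counts, depth is unknown, no counting intervals are given, and a shift in abundant genes moves all other values.

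The 10721 genes averaging at least 1 FPKM were transformed as log2(FPKM + 1) with a pseudocount of 1, so differences of low genes are understated. Group means were fitted in R 4.3.3 by limma 3.58.1 with all 6 libraries, an expression trend and 3 residual degrees of freedom. P-values were adjusted over all genes by the Benjamini-Hochberg method, and genes under 0.05 were called, in 3 contrasts. The fit was also run on simulated data with independent normal scatter taken from the fit itself. Such data meet its assumptions, so they cannot test the effect of technical replicates or of a shift in scaling. Members and lists were chosen with earlier results of these data known. Values per library are given for members called in any contrast or under 1 FPKM, and ranges for other members. Of other pathway genes, up to 3 called genes per branch with the largest change are named. Alternatives were a pseudocount of 0.1 or 0.5, dropping the filter, a filter at 5 FPKM, median log ratio scaling, quantile normalization, no trend, robust moderation, a replicate block, only the 4 libraries compared, and leaving out each library. Gene coordinates and overlaps come from GENCODE on GRCm38. Symbols had turned into dates in 27 rows.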

Additional observations from a re-analysis of the deposited data

How the results depend on the processing

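Genes called under overexpression, 165 in all, numbered 9 with no filter, 97 without the expression trend, 66 with the replicate block and 14 to 172 with each library left out. The 8 members called higher there became 1, 5 and 6 in the same order and 1 to 8 with each library left out; without a filter Srxn1 was the 1 that kept its call. Under knockdown the 3 members called higher became 1 with no filter, 5 with median log ratio scaling, 5 with quantile normalization and 1 to 3 with each library left out, and the 17 called lower became 11 to 17. Members lower under overexpression than under knockdown, 0 in the fit reported, were 2 with median log ratio scaling, 2 with quantile normalization, 1 with only the 4 libraries compared and 0 to 1 with each library left out. At an unadjusted p under 0.05, limma gave 1833, 5799 and 5338 genes in the 3 contrasts. With quantile normalization the knockdown difference turned to 0.046 for Txnrd1 and 0.0060 for Taldo1. In each case the cause was not tested.

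Calls in every alternative were kept by 1 of 8 members under overexpression, 11 of 20 under knockdown and 19 of 26 between the manipulated groups. Of the members' differences under the alternatives, 1741 stayed on their side of the threshold, 103 lost a call and 17 gained one. The other 2 changed sign with a call in either fit. A change of sign with no call in either fit is counted among the 1741. With quantile normalization 46.6% of knockdown calls and 53.1% of calls between the manipulated groups were higher. With the filter at 5 FPKM, 24.1% and 77.0% were, and 36.6% under overexpression. Calls under overexpression were 85.7% higher without control 1. The replicate block left 15 members lower and 2 higher under knockdown and 25 higher between the manipulated groups. Deviations of same-numbered libraries correlated at -0.12 (control and overexpression), 0.0069 (control and knockdown) and -0.21 (overexpression and knockdown) over 10721 genes, so the numbers are not taken as pairs. The 2 libraries per group and the unknown depth limit what can be detected.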
